A study of Mus musculus with 75 samples.

Results

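The genes of the heat shock and unfolded protein response are followed here in cells of the mouse visual cortex that were returned to light after darkness. They are a list of 39 gene symbols, chosen by name but with earlier results of these data known. Of these, 37 are among the 14261 genes of the deposited table, and 2 (Hspb1 and Trib3) were not analysed here. All mice were C57BL/6 and 8 weeks old. They carried 1 copy of the Rpl22-HA (RiboTag) allele, which adds an HA epitope to a ribosomal protein in cells with Cre recombinase, and 1 copy of an Emx, Gad2, PV, SST or VIP Cre allele. Mice were exposed to light for 1 h, 3 h or 7.5 h after dark housing, kept in standard housing, or kept in the dark without light. Emx-Cre acts in excitatory cortical neurons and also in cortical glia, Gad2-Cre in inhibitory neurons at large, and PV-, SST- and VIP-Cre in separate inhibitory classes. Each of the 75 samples pooled the visual cortices of 3 mice. The 73 libraries used here make 3 in each of 23 groups and 2 each in SST dark and SST standard.

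Cells keep proteins folded with chaperones that bind unfolded chains. In the cytosol, Hsp70 proteins work with J proteins, which start their cycle, and with Hsp110 proteins, which reset it, and heat shock factor 1 (Hsf1) switches their genes on. In the endoplasmic reticulum (ER), where secreted and membrane proteins fold, the sensors Ern1 (IRE1), Eif2ak3 (PERK) and Atf6 read the folding load. Their factors Xbp1, Atf4 and the cleaved form of Atf6 raise ER chaperones, disulfide isomerases and the machinery that degrades misfolded proteins.

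RNA bound to tagged ribosomes was pulled down, amplified and sequenced as single-end 50-base reads. The values are the authors' normalized signal, in effect gene reads scaled by 1 factor per library. They are not divided by gene length, so levels are compared here only within a gene. Libraries held 7.28 to 52.3 M gene reads, and those of 7.5 h light (14.6 ± 5.27 M, SD, n = 15) and standard housing (16.2 ± 6.48 M, n = 14) were shallower than those of dark housing (33.2 ± 9.18 M, n = 14). No member stood at 0 in any library, and the fewest reads of a member in a library were 4, for Hspa1b. Summed signal of 10 excitatory markers was 135224 to 183131 in Emx at 7.5 h of light and 137205 to 183000 in Emx dark, while 8 inhibitory markers summed to 4610 to 6168 in Emx at 7.5 h and 4043 to 5164 in Emx dark. Astrocyte markers were also high in Emx (177937 to 218656 at 7.5 h and 161034 to 205551 in the dark), so the Emx profile is not of neurons alone. In such pooled RNA, fewer cells of a type and less RNA per cell cannot be told apart. Nothing in the labels says that the pools came from separate litters or days, so p-values measure the spread between these pools.

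Some members were called higher with light, and more of them after longer light. At 7.5 h, 25 of the 37 were called in no line, or 10 of 37 when the replicate number was used as a block, and at 1 h 36 and 27 were. The share of all genes called in no line was not counted. A call means a 5% false discovery rate (Benjamini-Hochberg over all genes) in limma on log2(signal + 1), fitted within a line, and fold changes are on that scale. At 1 h of light the members called higher than in the dark numbered 1, 0, 0, 0 and 0 (for Emx, Gad2, PV, then SST and VIP), against 0.627, 0.218, 0.155, 0.324 and 0.289% of all genes. At 3 h they numbered 6, 0, 0, 1 and 0, against 0.972, 0.127, 0.0775, 0.401 and 0.282%. At 7.5 h they numbered 12, 2, 1, 1 and 1, against 2.52, 0.352, 0.331, 0.978 and 0.24%. The share of all genes called higher also rose from 1 h to 7.5 h, in every line but VIP. No member was called lower than in the dark at any of these times. In the lines without a call, the members at an unadjusted p under 0.05 numbered 3, 0, 3 and 5 at 1 h (Gad2, PV, SST and VIP) and 11, 4 and 10 at 3 h (Gad2, PV and VIP), and all of these were higher in light. The share of all genes at an unadjusted p under 0.05 was not counted, here or below.

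Libraries of a line with the same replicate number deviated together across conditions, so each fit was also made with the number as a block. The calls summed over the lines, out of 185 pairs of member and line, were then 19 at 1 h (1 without the block), 60 at 3 h (7 without) and 92 at 7.5 h (17 without), all higher in light. By line they numbered 23, 23, 16, 20 and 10 at 7.5 h, against 12.9, 5.37, 5.29, 10 and 1.37% of all genes. At 3 h they numbered 21, 15, 6, 10 and 8, against 7.35, 2.38, 0.867, 4.05 and 1.84%, and at 1 h 10, 2, 1, 2 and 4, against 2.2, 1.13, 0.514, 1.19 and 0.585%. Of the blocked calls, 63 of 92 at 7.5 h held when any 1 library of the compared groups was left out, as did 29 of 60 at 3 h and 7 of 19 at 1 h. The contrasts with dark share their dark libraries within a line.

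Without the block, single libraries moved these counts. The count at 7.5 h was 11 without Emx dark replicate 2. The count at 3 h was 1 without Emx dark replicate 2, Emx dark replicate 3 or Emx 3 h replicate 2, 3 without Emx 3 h replicate 3 and 4 without Emx dark replicate 1. The count at 1 h was 0 without Emx 1 h replicate 2 or Emx dark replicate 3, and 2 without Emx 1 h replicate 1 or VIP 1 h replicate 1.

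**Figure D1:**
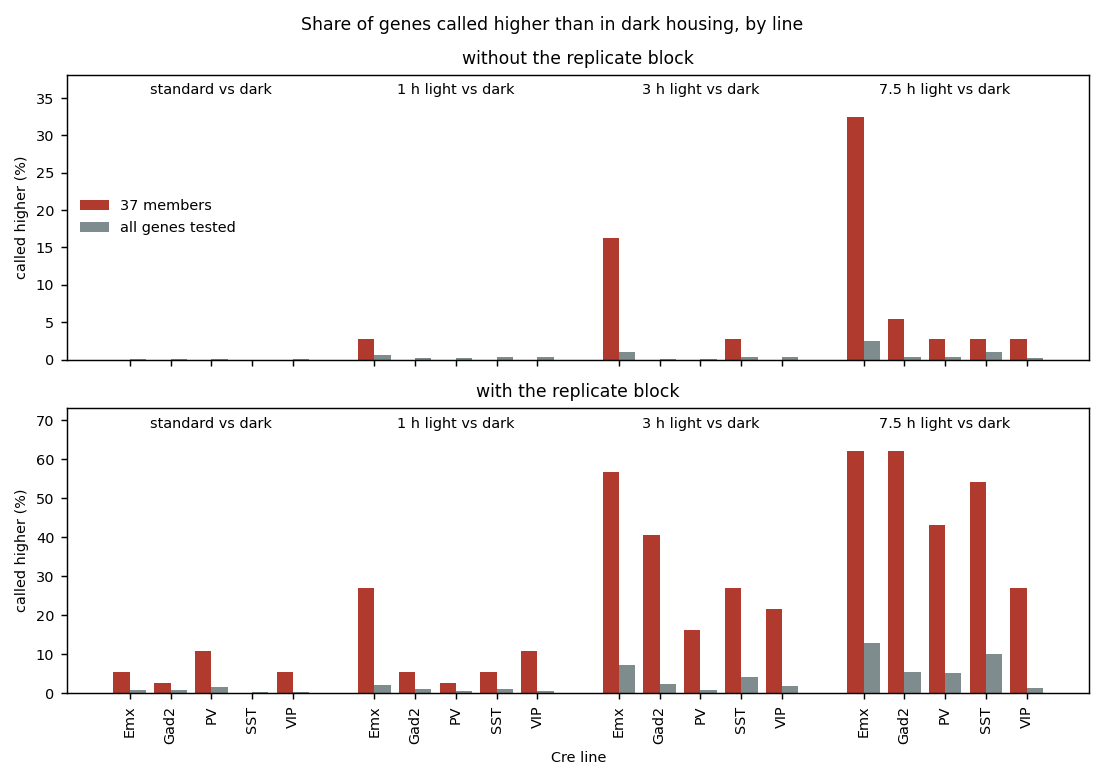
Percent of the 37 members and of all genes tested that were called higher than in dark housing, by comparison and Cre line, without the replicate block (top) and with it (bottom). With the block, 62.2% of the members were called higher at 7.5 h in Emx and in Gad2.

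Fitted changes were mostly positive and modest. The median log2 change of the members at 7.5 h was 0.51 in Emx, 0.36 in VIP, 0.34 in SST, 0.33 in Gad2 and 0.27 in PV, while that of all genes lay between -0.03 and 0. Fitted changes at 7.5 h were positive for 35, 35, 34, 33 and 33 of the 37 members, and for 29 members in all 5 lines. Every light library exceeded every dark library at 7.5 h for 15, 14, 10, 12 and 17 members, where this held for 8.43, 5.17, 5.25, 9.96 and 6.17% of all genes. Of the 3 light times, the group mean was highest at 7.5 h for 25, 26, 26, 22 and 24 members. No share of all genes was taken for this or for the counts of positive changes. With the block, 7 members were called higher in all 5 lines at 7.5 h, where 0.759% of the genes tested in all lines were. They were the ER chaperones Hspa5, Calr and Dnajb11, the isomerase Pdia3, the factor Atf4, the Hsp110 protein Hsph1 and the J protein Dnajb5. Of these, Hspa5 and Dnajb5 held in all 5 without any 1 library. At 3 h Hspa5 and Xbp1 were called in all 5, where 0.305% of all genes were.

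**Figure D2:**
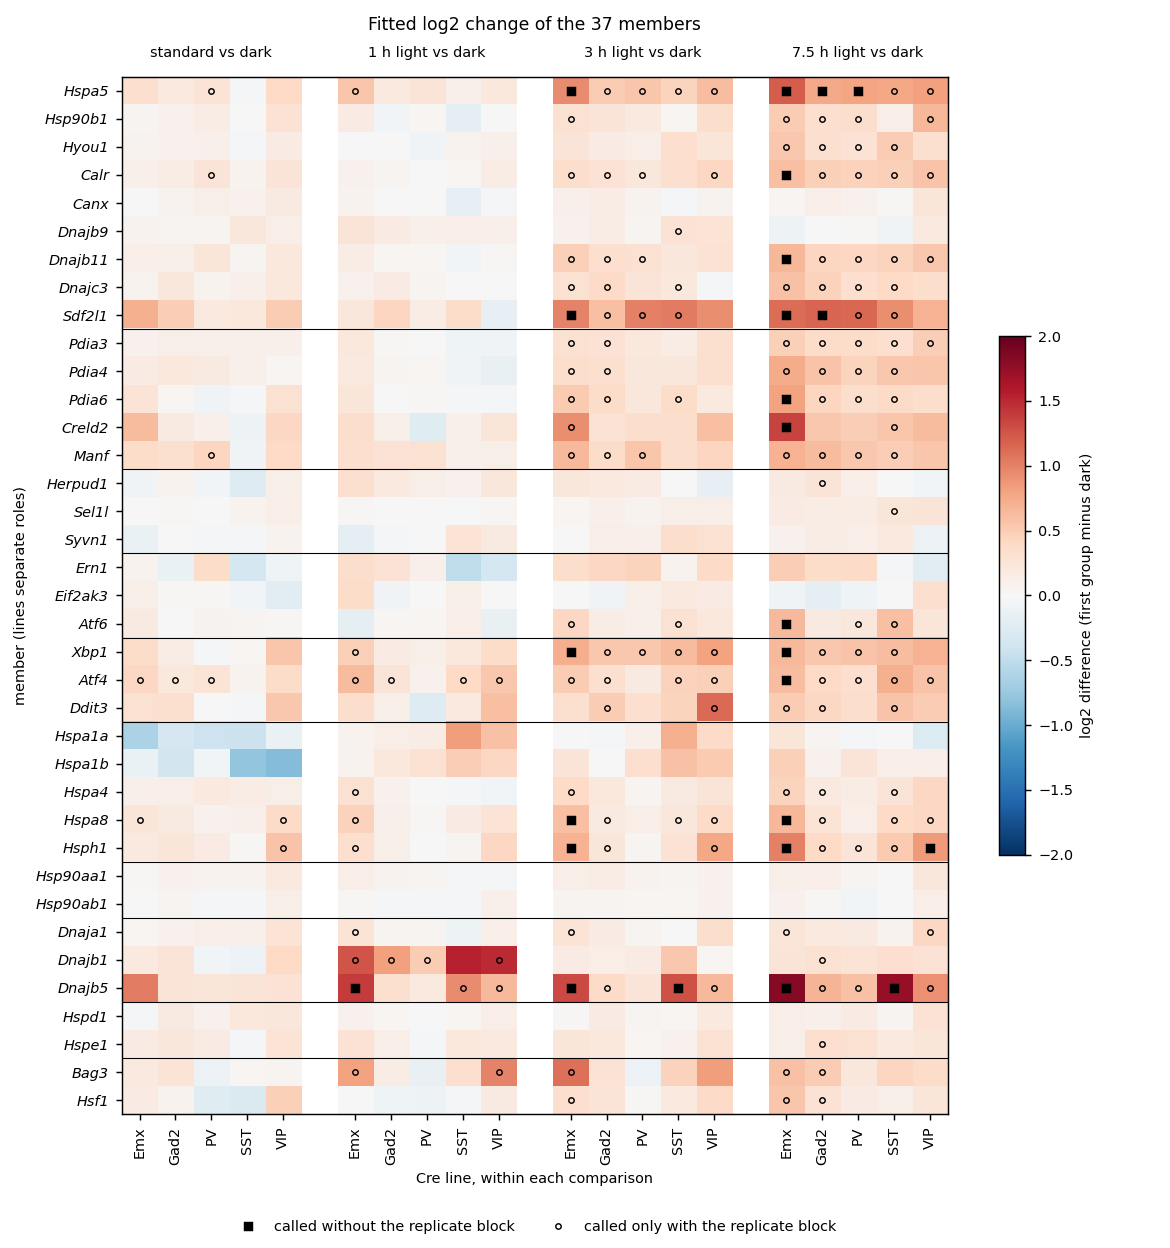
Fitted log2 change of each of the 37 members (rows, grouped by role) against dark housing, in 5 Cre lines within each of 4 comparisons (columns). Filled squares mark calls without the replicate block, and open circles mark calls made only with it. Calls gather in most ER rows and in Xbp1, Atf4, Hsph1, Hspa8 and Dnajb5 at 3 h and 7.5 h, and Dnajb1 is highest at 1 h. The ER rows of Canx, Dnajb9, Herpud1, Sel1l and Syvn1 hold few calls or none.

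Hspa5 (BiP), the Hsp70 chaperone of the ER and the usual gauge of the unfolded protein response, rose in every line when the block was used. In Emx its signal was 9841, 7906 and 6483 at 7.5 h of light, against 4134, 3214 and 3104 in the dark, so every light library lay above every dark one. The fitted change was 2.30-fold (log2 1.20 ± 0.17 SE, adjusted p = 0.000889), and that call held without any 1 library. In Gad2 the libraries read 7649, 9336 and 6502 at 7.5 h, against 4556, 4532 and 4594 in the dark, again apart (1.70-fold, adjusted p = 0.0136). In PV the change was 1.73-fold (adjusted p = 0.0186). The Gad2 call ended in 5 of 6 fits that each left out 1 library, with adjusted p up to 0.0739 (without Gad2 dark replicate 2), and the PV call in 5 of 6 fits that each left out 1 library, with adjusted p up to 0.125 (without PV dark replicate 2). In SST and VIP the change was 1.71-fold and 1.77-fold, not called without the block (adjusted p = 0.151 and 0.246), although no light and dark libraries overlapped in any line. With the block the adjusted p lay between 1.62e-07 and 0.00284 over the 5 lines, and these 5 calls held without any 1 library.

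The course of Hspa5 was graded. Its mean signal in Emx was 3484 ± 566 in the dark, 5115 ± 865 at 1 h, 6663 ± 421 at 3 h and 8077 ± 1685 at 7.5 h (SD, n = 3 each). At 3 h it was 1.93-fold higher than in the dark in Emx (adjusted p = 0.0112), a call that ended in 3 of 6 fits that each left out 1 library, with adjusted p up to 0.077 (without Emx 3 h replicate 2). In the other lines the change at 3 h was 1.36-fold to 1.54-fold, called there only with the block. Of those blocked calls, only that in PV held under every omission of 1 library. At 1 h a call was made, only with the block, in Emx (1.47-fold, adjusted p = 0.0348, against 0.406 without it), and it ended in 4 of 6 fits that each left out 1 library, with adjusted p up to 0.184 (without Emx dark replicate 2).

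The promoter of Hspa5 shows the element that this response is known for. The ER stress response element (ERSE), which Atf6 and Xbp1 are known to bind together with NF-Y, is CCAAT and CCACG set 9 bases apart. It is in capitals in the 300 bases around the start of the gene (RefSeq promoter window, GRCm38.p6, 250 bases before the start and 50 after it).
Hspa5, chr2:34771840-34772139, plus strand: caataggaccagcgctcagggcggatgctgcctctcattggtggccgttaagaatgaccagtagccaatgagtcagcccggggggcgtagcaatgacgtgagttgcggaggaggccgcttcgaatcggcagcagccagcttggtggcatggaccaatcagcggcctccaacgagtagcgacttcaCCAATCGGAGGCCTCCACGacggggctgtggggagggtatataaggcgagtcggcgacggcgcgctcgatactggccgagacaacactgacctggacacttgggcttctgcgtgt
Promoter windows were at hand for 30 of the 37 members, and both strands were searched. An ERSE stood in the windows of 8 of them and in those of 18 of the 10623 genes of the table with a window (0.169%). All 8 are among the 15 ER chaperone, isomerase and degradation members with a window. The element was first defined on promoters of this kind, so its presence describes the members and is not a result. Those of the other 7 genes are given in the orientation of the element, with flanking bases in lower case and the element in capitals, to show what the members share.
Hsp90b1, chr10:86705638-86705656, minus strand: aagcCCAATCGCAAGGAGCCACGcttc
Hsp90b1, chr10:86705533-86705551, plus strand: ctcaCCAATCGTGCCTCACCACGcact
Calr, chr8:84847075-84847093, plus strand: tgggCCAATGAGGGTCGACCACGcgtt
Canx, chr11:50325800-50325818, minus strand: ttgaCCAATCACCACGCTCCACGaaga
Dnajc3, chr14:118937827-118937845, plus strand: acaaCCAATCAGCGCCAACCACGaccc
Pdia6, chr12:17266491-17266509, plus strand: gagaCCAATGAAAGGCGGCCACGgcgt
Creld2, chr15:88819520-88819538, minus strand: tggaCCAATTGAGGCTCGCCACGagaa
Syvn1, chr19:6046532-6046550, plus strand: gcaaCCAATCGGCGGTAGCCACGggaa
The shorter ERSE-II, ATTGG and CCACG set 1 base apart, stood in the windows of Dnajb11 and Herpud1 and in those of 8 of the 10623 genes (0.0753%).
Dnajb11, chr16:22857852-22857862, plus strand: ggcgATTGGCCCACGcctg
Herpud1, chr8:94386377-94386387, plus strand: gctgATTGGGCCACGttgg
The members with an ERSE were not all called. At 7.5 h with the block, 5 of the 8 ER members with an ERSE were called in at least 3 lines, as were 4 of the 7 without one and 4.58% of all genes. The 7 include Dnajb11 and Herpud1, which hold an ERSE-II, and Dnajb11 is 1 of the 4. Canx and Syvn1 hold the ERSE and were called against dark at no light time in any line. Sdf2l1, whose window holds no match to these letters, had the highest median change over lines of the ER members with a window.

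Sdf2l1, a small partner of BiP that keeps clients from aggregating, was called in Gad2 and Emx at 7.5 h. Its signal in Gad2 was 356, 550 and 437 at 7.5 h of light, against 171, 200 and 220 in the dark, with no overlap (2.24-fold, log2 1.16 ± 0.17 SE, adjusted p = 0.00557). In Emx it was 632, 774 and 622 at 7.5 h, against 316, 269 and 348 in the dark, also without overlap (2.17-fold, adjusted p = 0.00595). Both calls held without any 1 library. Its change at 7.5 h was 2.21-fold in PV and 1.90-fold in SST, called only with the block. In VIP, where libraries overlapped, it was 1.62-fold and not called with the block either (adjusted p = 0.314). At 3 h it was 2.00-fold higher in Emx (adjusted p = 0.0228), a call that ended in 5 of 6 fits that each left out 1 library, with adjusted p up to 0.145 (without Emx 3 h replicate 2).

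Calr, the calcium-binding lectin chaperone, rose by less but in every line. Its signal in Emx was 5877, 6598 and 5744 at 7.5 h of light, against 3856, 4000 and 4172 in the dark (1.51-fold, log2 0.60 ± 0.11 SE, adjusted p = 0.00708), and the call held without any 1 library. Light and dark libraries did not overlap in any line at 7.5 h. The change was 1.37-fold to 1.51-fold over the lines, called outside Emx only with the block (adjusted p at most 0.00384). The VIP call of Calr ended in 1 of 6 fits that each left out 1 library, with adjusted p up to 0.0621 (without VIP dark replicate 3). Canx, the membrane lectin that shares clients with Calr, was 1.01-fold to 1.18-fold of its dark level at 7.5 h. Dnajb11, a J protein of BiP, read 3940, 2974 and 3176 at 7.5 h in Emx, against 2117, 1896 and 2329 in the dark. The groups did not overlap in this or any other line (1.58-fold in Emx, adjusted p = 0.0163). That call ended in 2 of 6 fits that each left out 1 library, with adjusted p up to 0.0947 (without Emx dark replicate 2). With the block Dnajb11 was called in all 5 lines (1.33-fold to 1.58-fold, adjusted p at most 0.0407), and its VIP call ended in 5 of 6 fits that each left out 1 library, with adjusted p up to 0.231 (without VIP dark replicate 3).

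The remaining ER chaperones were called only with the block. Dnajc3 (p58IPK, a J protein that also restrains PERK) read 4948, 3302 and 3226 at 7.5 h in Emx, against 2958, 2440 and 2177 in the dark, without overlap (1.50-fold, adjusted p = 0.113 without the block and 2.2e-05 with it). It was called with the block at 7.5 h in Emx, Gad2, PV and SST. Hsp90b1 (GRP94, the Hsp90 of the ER) read 17285, 16491 and 18412 at 7.5 h in VIP, against 13025, 9691 and 10444 in the dark, again without overlap (1.58-fold, adjusted p = 0.248 without the block and 0.00234 with it). Its blocked calls at 7.5 h were in Emx, Gad2, PV and VIP. Hyou1 (GRP170, which resets BiP) read 3067, 3111 and 1802 at 7.5 h in Emx, against 2090, 1920 and 1391 in the dark. Those groups overlapped, and replicate number 3 was the lowest in both (1.45-fold, adjusted p = 0.316 without the block and 4.99e-05 with it). Dnajb9, another J protein of BiP, was 0.935-fold to 1.15-fold of dark at 7.5 h and called in no line. Its 1 call in the contrasts of light with dark was at 3 h in SST, with the block (1.22-fold, adjusted p = 0.0448), and it ended in 5 of 5 fits that each left out 1 library, with adjusted p up to 0.376 (without SST dark replicate 3). The blocked calls of Dnajc3 and Hyou1 in Emx and of Hsp90b1 in VIP held without any 1 library. Those at 7.5 h of Dnajc3 in PV and of Hsp90b1 in Gad2 did not hold under every such omission.

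Among the disulfide isomerases and secreted ER proteins, Creld2 changed most in Emx. This secreted protein, a known target of Atf6, read 572, 517 and 584 at 7.5 h in Emx, against 181, 202 and 278 in the dark. Every light library exceeded every dark one (2.57-fold, log2 1.36 ± 0.24 SE, adjusted p = 0.00496), and the call held without any 1 library. In the other lines its libraries overlapped, at 1.40-fold to 1.55-fold, and with the block it was called at 7.5 h in Emx and SST. That SST call did not hold under every omission of 1 library. Pdia6, an isomerase that dampens the sensors, read 2054, 2182 and 2280 at 7.5 h in Emx, against 1145, 1238 and 1362 in the dark, without overlap (1.74-fold, adjusted p = 0.0322). The Pdia6 call ended in 6 of 6 fits that each left out 1 library, with adjusted p up to 0.112 (without Emx dark replicate 2). With the block it was called at 7.5 h in Emx, Gad2, PV and SST. The blocked calls in PV and SST did not hold under every omission of 1 library.

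Pdia3, the isomerase that works with Calr and Canx, read 5568, 5316 and 5436 at 7.5 h in VIP, against 4249, 3788 and 3618 in the dark, without overlap (1.40-fold, adjusted p = 0.585 without the block and 0.00888 with it). It was called with the block in all 5 lines at 7.5 h, at 1.26-fold to 1.40-fold, and the VIP call ended in 4 of 6 fits that each left out 1 library, with adjusted p up to 0.0773 (without VIP 7.5 h replicate 2). Pdia4, another isomerase, read 1729, 1381 and 936 at 7.5 h in Emx, against 975, 771 and 638 in the dark (1.67-fold, adjusted p = 0.136 without the block and 2.49e-05 with it). The lowest light library lay under the highest dark library there, and in the other lines Pdia4 libraries did not overlap. Manf, a secreted factor that supports neurons, read 1108, 1189 and 1405 at 7.5 h in Emx, against 573, 667 and 1144 in the dark, which overlap (1.62-fold, adjusted p = 0.222 without the block and 0.000278 with it). With the block, Pdia4 was called at 7.5 h in Emx, Gad2, PV and SST, and Manf in Emx, Gad2, PV and SST. Both calls in Emx held without any 1 library. The SST call of Manf did not hold under every such omission.

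The degradation genes stayed close to their dark levels. Herpud1, Sel1l and Syvn1, parts of the complex that draws misfolded proteins out of the ER, were 0.892 to 1.25, 0.995 to 1.20 and 0.875 to 1.28 times their dark levels over the 15 contrasts of light with dark. With the block, Herpud1 was called at 7.5 h in Gad2 (1.20-fold, adjusted p = 0.0305) and Sel1l at 7.5 h in SST (1.18-fold, adjusted p = 0.0197). The Herpud1 call ended in 4 of 6 fits that each left out 1 library, with adjusted p up to 0.142 (without Gad2 dark replicate 1), and the Sel1l call in 2 of 5 fits that each left out 1 library, with adjusted p up to 0.44 (without SST dark replicate 3). The replicate number took a median over lines of 74.3% (Herpud1), 74.2% (Sel1l) and 63.7% (Syvn1) of their variance after condition.

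Of the factors, Xbp1 was already high at 3 h. Xbp1, whose transcript Ern1 splices to make the active factor, read 3007, 3522 and 3441 at 3 h in Emx, against 2285, 1772 and 1992 in the dark (1.65-fold, log2 0.72 ± 0.15 SE, adjusted p = 0.0306). No light and dark libraries overlapped at 3 h or 7.5 h, in this or any other line. At 7.5 h in Emx it was 1.56-fold higher (adjusted p = 0.0278). The call at 3 h ended in 4 of 6 fits that each left out 1 library, with adjusted p up to 0.184 (without Emx dark replicate 2), and that at 7.5 h in 3 of 6 fits that each left out 1 library, with adjusted p up to 0.144 (without Emx dark replicate 2). With the block Xbp1 was called at 3 h in all 5 lines (1.45-fold to 1.75-fold, adjusted p at most 0.0318) and at 7.5 h in Emx, Gad2, PV and SST. Of these blocked calls, that at 3 h in VIP ended in 6 of 6 fits that each left out 1 library, with adjusted p up to 0.148 (without VIP 3 h replicate 3), and the others held without any 1 library. The table gives 1 value per gene, so splicing of Xbp1 was not measured. In VIP standard housing Xbp1 read 1958, 2672 and 4530, and replicate 3 there lay above every other Xbp1 value of the line.

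Atf4, the factor that PERK signalling raises by translation, was called with the block at 1 h in Emx, Gad2, SST and VIP. It read 4204, 5048 and 4256 at 7.5 h in Emx, against 2774, 2969 and 3033 in the dark, with no overlap in this or any other line (1.53-fold, adjusted p = 0.0231). The call ended in 5 of 6 fits that each left out 1 library, with adjusted p up to 0.094 (without Emx 7.5 h replicate 2). With the block it was called at 7.5 h in all 5 lines. At 1 h its changes were 1.56-fold in Emx, 1.46-fold in VIP, 1.32-fold in SST and 1.19-fold in Gad2. Of the blocked calls at 1 h, that in Emx held without any 1 library, while that in VIP ended in 6 of 6 fits that each left out 1 library, with adjusted p up to 0.322 (without VIP dark replicate 2), that in SST in 3 of 5 fits that each left out 1 library, with adjusted p up to 0.225 (without SST dark replicate 1) and that in Gad2 in 2 of 6 fits that each left out 1 library, with adjusted p up to 0.0871 (without Gad2 dark replicate 3). The VIP call at 7.5 h ended in 4 of 6 fits that each left out 1 library, with adjusted p up to 0.103 (without VIP dark replicate 2). Atf6, the sensor whose cleaved part is a factor, read 7360, 5291 and 5300 at 7.5 h in Emx, against 4364, 3647 and 3393 in the dark, without overlap (1.56-fold, adjusted p = 0.0381). That call ended in 3 of 6 fits that each left out 1 library, with adjusted p up to 0.158 (without Emx 7.5 h replicate 1). With the block Atf6 was called at 7.5 h in Emx, PV and SST (1.51-fold in SST). The PV call of Atf6 did not hold under every omission of 1 library. At 1 h in Emx Atf6 was 0.888-fold of dark and not called (blocked adjusted p = 0.291).

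Ddit3 (CHOP), a factor tied to cell death under lasting ER stress, had its largest change at 3 h in VIP. It read 349, 681 and 607 there, against 143, 313 and 303 in the dark, and the groups did not overlap (2.19-fold, adjusted p = 0.483 without the block and 0.00697 with it). That call ended in 2 of 6 fits that each left out 1 library, with adjusted p up to 0.0593 (without VIP dark replicate 1). Its other blocked calls against dark were at 3 h in Gad2 (1.42-fold, adjusted p = 0.00509) and at 7.5 h in Emx, Gad2 and SST, with overlapping libraries. The Gad2 call at 3 h ended in 2 of 6 fits that each left out 1 library, with adjusted p up to 0.0758 (without Gad2 3 h replicate 3), and the calls at 7.5 h ended in 3 of 6 fits that each left out 1 library, with adjusted p up to 0.22 (without Emx dark replicate 2) in Emx, in 4 of 6 fits that each left out 1 library, with adjusted p up to 0.0941 (without Gad2 dark replicate 3) in Gad2 and in 3 of 5 fits that each left out 1 library, with adjusted p up to 0.139 (without SST dark replicate 3) in SST. The sensors Ern1 and Eif2ak3 were called at no light time in any line against dark, with or without the block, at 0.702 to 1.40 times dark for Ern1 and 0.875 to 1.29 for Eif2ak3.

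In the cytosol, Hsph1 (Hsp110) was called in Emx and VIP at 7.5 h. It read 25154, 17946 and 16811 at 7.5 h in Emx, against 11089, 9025 and 9179 in the dark (2.02-fold, log2 1.02 ± 0.16 SE, adjusted p = 0.00195). No libraries overlapped, and the call held without any 1 library. In VIP it read 11936, 9293 and 9619 at 7.5 h, against 7129, 5225 and 4903 in the dark, also without overlap (1.80-fold, adjusted p = 0.0448). The VIP call ended in 5 of 6 fits that each left out 1 library, with adjusted p up to 0.323 (without VIP dark replicate 3). With the block Hsph1 was called at 7.5 h in all 5 lines, down to 1.19-fold in PV (adjusted p = 0.00462), where libraries overlapped. The PV call ended in 1 of 6 fits that each left out 1 library, with adjusted p up to 0.0593 (without PV dark replicate 3). The blocked SST call also did not hold under every omission of 1 library, while those in Emx, Gad2 and VIP did. At 3 h Hsph1 was called in Emx (1.62-fold, adjusted p = 0.0469). That call ended in 6 of 6 fits that each left out 1 library, with adjusted p up to 0.236 (without Emx dark replicate 2).

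The heat shock element (HSE), the site of Hsf1, was searched as GAA, TTC and GAA with 2 bases between neighbours, on both strands. It stood in the windows of Hsph1, Hspd1 and Hspe1 and in those of 65 of the 10623 genes (0.612%). In Hsph1 its middle lies 42 bases after the start of the gene, on the opposite strand, and it is marked in capitals as the window reads.
Hsph1, chr5:149636287-149636586, minus strand: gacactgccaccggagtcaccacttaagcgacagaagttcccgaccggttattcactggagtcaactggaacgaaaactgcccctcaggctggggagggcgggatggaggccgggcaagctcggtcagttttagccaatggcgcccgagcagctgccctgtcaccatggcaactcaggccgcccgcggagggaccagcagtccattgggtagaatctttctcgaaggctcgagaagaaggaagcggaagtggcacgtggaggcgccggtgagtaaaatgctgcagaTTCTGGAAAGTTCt

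Hspa8 (Hsc70), the constant Hsp70 of the cytosol, read 23782, 18653 and 20705 at 7.5 h in Emx, against 13700, 12200 and 13592 in the dark (1.59-fold, adjusted p = 0.00811). No libraries overlapped. The call ended in 1 of 6 fits that each left out 1 library, with adjusted p up to 0.0506 (without Emx dark replicate 2). At 3 h in Emx it was 1.52-fold higher (adjusted p = 0.031), a call that ended in 6 of 6 fits that each left out 1 library, with adjusted p up to 0.182 (without Emx dark replicate 2). With the block Hspa8 was called at 7.5 h in Emx, Gad2, SST and VIP, and in PV the change was 1.10-fold (adjusted p = 0.0795). The blocked VIP call did not hold under every omission of 1 library. Hspa4 (another Hsp110) read 7120, 4906 and 4342 at 7.5 h in Emx, against 4757, 3690 and 3373 in the dark, which overlap (1.37-fold, adjusted p = 0.321 without the block and 2.56e-05 with it).

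The heat-inducible Hsp70 genes and the cytosolic Hsp90 genes were called against dark at no light time, with or without the block. Hspa1a and Hspa1b are near-identical neighbours whose reads the authors' counting may have divided between them, so their values are uncertain. They were 0.828 to 1.78 and 1.00 to 1.50 times their dark levels over the light times and lines. At 1 h in SST Hspa1a read 345, 325 and 281, against 170 and 185 in the dark, without overlap (1.78-fold, blocked adjusted p = 0.0678). Hsp90aa1 and Hsp90ab1, the inducible and the constant Hsp90 of the cytosol, were 0.986 to 1.17 and 0.963 to 1.10 times their dark levels.

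Among the cytosolic J proteins, Dnajb5 stayed high to 7.5 h while Dnajb1 stood highest at 1 h. Dnajb5, an Hsp40 protein, read 6781, 7412 and 5344 at 7.5 h in Emx, against 2164, 1908 and 1460 in the dark. The groups lay far apart, and the change of 3.54-fold (log2 1.83 ± 0.24 SE, adjusted p = 0.000592) was the largest of any member in any contrast of light with dark. In SST it read 2918, 3675 and 2929 at 7.5 h, against 1044 and 859 in the dark, again far apart (3.33-fold, adjusted p = 0.00108). Both calls held without any 1 library. In Gad2, PV and VIP it was 1.50-fold to 1.89-fold at 7.5 h, also without overlap, called only with the block.

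Dnajb5 was called earlier as well. The calls were at 1 h (2.65-fold, adjusted p = 0.00922) and 3 h (2.51-fold, adjusted p = 0.0119) in Emx and at 3 h in SST (2.41-fold, adjusted p = 0.0192). The Emx call at 1 h ended in 2 of 6 fits that each left out 1 library, with adjusted p up to 0.0725 (without Emx 1 h replicate 2), and the Emx call at 3 h in 3 of 6 fits that each left out 1 library, with adjusted p up to 0.0881 (without Emx 3 h replicate 2). The SST call at 3 h ended in 4 of 5 fits that each left out 1 library, with adjusted p up to 0.268 (without SST dark replicate 3).

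Dnajb1 (Hsp40), a classic target of Hsf1, had its highest group mean at 1 h in all 5 lines. It read 2344, 4310 and 7493 at 1 h in VIP, against 1285, 1339 and 1945 in the dark. In SST it read 8556, 5808 and 6275 at 1 h, against 1871 and 2832 in the dark. Light and dark libraries did not overlap at 1 h in these lines, in Emx or in Gad2, but did in PV. The change at 1 h was 2.83-fold in VIP, 2.94-fold in SST, 2.40-fold in Emx, 1.77-fold in Gad2 and 1.43-fold in PV. It was called in no line without the block (adjusted p = 0.0783 in VIP and 0.0862 in SST). With the block it was called in Emx, Gad2, PV and VIP (adjusted p = 0.00186, 5.31e-05, 0.00258 and 0.0123) and not in SST (0.0834). The VIP call ended in 4 of 6 fits that each left out 1 library, with adjusted p up to 0.0882 (without VIP dark replicate 2), and the other 3 held without any 1 library. By 3 h it was 1.03-fold to 1.46-fold of dark, with overlap in every line. Dnaja1, another cytosolic J protein, was called only with the block, at 1 h in Emx, at 3 h in Emx and at 7.5 h in Emx and VIP. It was 0.931 to 1.33 times dark over all contrasts. None of these Dnaja1 calls held under every omission of 1 library.

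**Figure D3:**
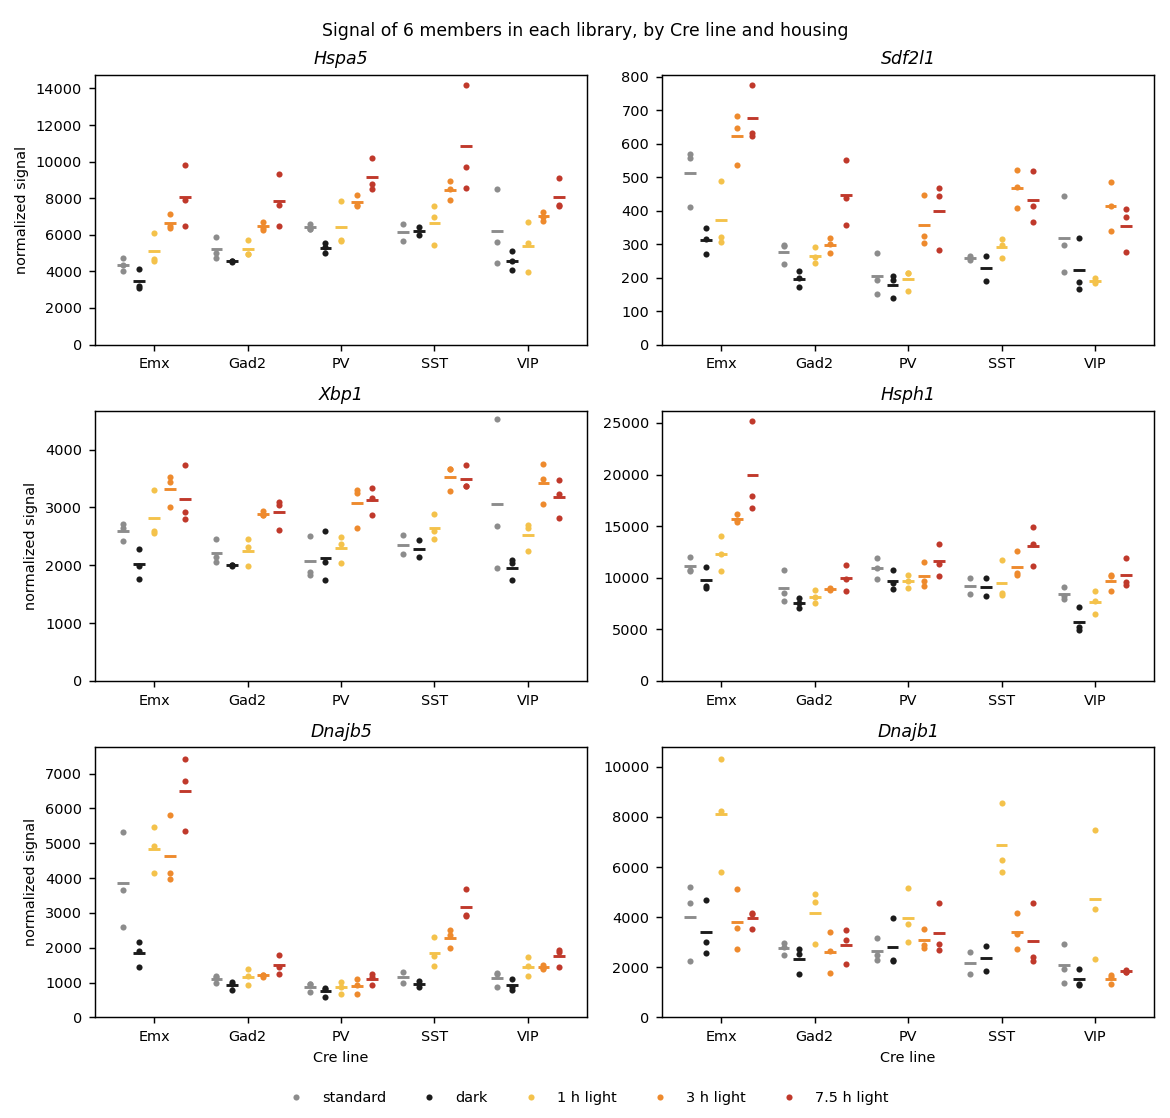
Normalized signal of Hspa5, Sdf2l1, Xbp1, Hsph1, Dnajb5 and Dnajb1 in each library, by Cre line and, within a line, by housing and hours of light as in the legend. Hspa5 climbs over the light times to 6483 to 9841 at 7.5 h in Emx, while Dnajb1 has its highest mean at 1 h in each line.

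The mitochondrial chaperonin followed the replicate number. Against dark, Hspd1 (Hsp60) was called at no light time, and Hspe1 (Hsp10), its lid, only with the block at 7.5 h in Gad2 (1.26-fold, adjusted p = 0.00811), a call that ended in 2 of 6 fits that each left out 1 library, with adjusted p up to 0.0636 (without Gad2 dark replicate 2). In Emx the Hspe1 signal was 520 to 722 in number 1 libraries, 1000 to 1274 in number 2 and 1475 to 1917 in number 3, so no number overlapped another. The numbers stood in the same order by mean in every line, and the mean of number 3 was 2.13 to 2.87 times that of number 1. The number took a median over lines of 94.1% of the variance of Hspe1 after condition, against 76.8% for Hyou1, in which number 3 was lowest by mean in each line, and 6.71% for Hspa5. By line, the share for Hspa5 ran from 3.29% in Gad2 to 20.3% in SST and 26.9% in VIP. Number 3 had the highest Hspa5 mean in PV, SST and VIP. No label says what the numbers mark.

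**Figure D4:**
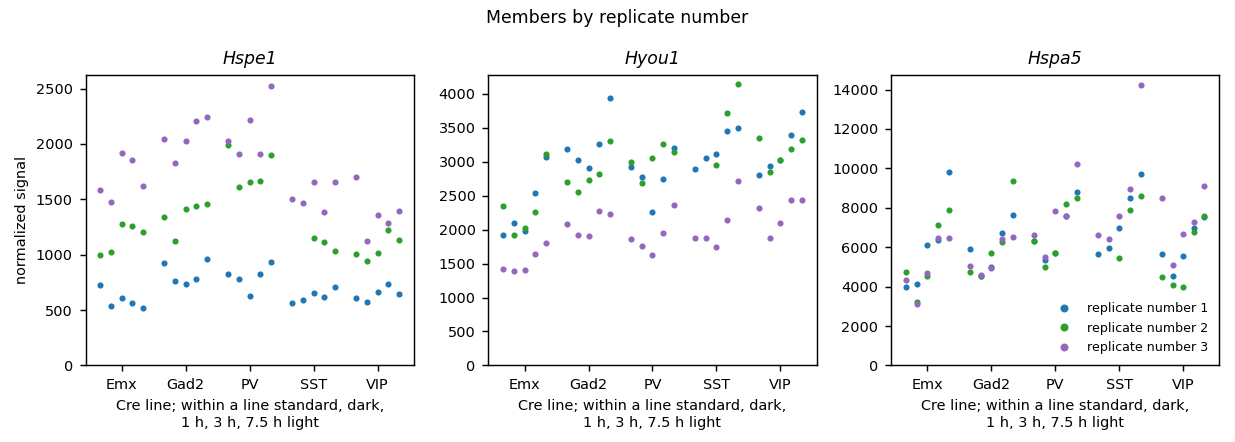
Normalized signal of Hspe1, Hyou1 and Hspa5 in each library, by Cre line and condition, coloured by replicate number. Hspe1 separates by number (520 to 722 in number 1 and 1475 to 1917 in number 3 in Emx), and Hyou1 is lowest by mean in number 3. In Hspa5 the numbers lie closer, but number 3 has the highest mean in PV, SST and VIP.

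Hspd1 and Hspe1 lie head to head on mouse chromosome 1. The window of Hspe1 holds 2 overlapping matches to the heat shock element, 1 on each strand, at the same coordinates as those in the window of Hspd1. Their joint letters, in capitals, form 1 unbroken run of alternating TTC and GAA units.
Hspe1, chr1:55087898-55088197, plus strand: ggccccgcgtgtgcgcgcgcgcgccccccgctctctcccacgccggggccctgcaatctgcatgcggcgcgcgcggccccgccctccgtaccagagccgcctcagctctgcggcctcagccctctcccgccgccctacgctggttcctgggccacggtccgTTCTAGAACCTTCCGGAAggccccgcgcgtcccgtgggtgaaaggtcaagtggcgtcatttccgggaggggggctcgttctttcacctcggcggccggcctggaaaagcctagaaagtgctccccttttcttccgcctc
The window of Dnajb1 holds no match to the letters of the HSE, which says nothing about the factor. No member window held the cyclic AMP response element TGACGTCA, which stood in 3.55% of the 10623, and 13 of 30 held its core TGACG (43.3%, against 34.6%).

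Bag3, a co-chaperone that links Hsp70 to autophagy, and Hsf1 were called only with the block. Bag3 in Emx read 197, 321 and 305 at 3 h, against 118, 159 and 103 in the dark, with no overlap (2.14-fold, adjusted p = 0.0657 without the block and 0.000108 with it). Its other blocked calls were at 1 h in Emx and VIP (1.74-fold and 1.99-fold) and at 7.5 h in Emx and Gad2 (1.51-fold and 1.42-fold). The calls at 3 h in Emx and 7.5 h in Gad2 held without any 1 library. Those at 1 h ended in 2 of 6 fits that each left out 1 library, with adjusted p up to 0.109 (without Emx dark replicate 3) in Emx and in 6 of 6 fits that each left out 1 library, with adjusted p up to 0.384 (without VIP dark replicate 3) in VIP, and that at 7.5 h in Emx ended in 2 of 6 fits that each left out 1 library, with adjusted p up to 0.113 (without Emx dark replicate 3). Hsf1 was called with the block at 3 h in Emx (1.26-fold) and at 7.5 h in Emx and Gad2 (1.46-fold and 1.22-fold), with overlapping libraries in each case. Its call at 3 h ended in 1 of 6 fits that each left out 1 library, with adjusted p up to 0.0911 (without Emx 3 h replicate 3), and that at 7.5 h in Gad2 in 2 of 6 fits that each left out 1 library, with adjusted p up to 0.121 (without Gad2 7.5 h replicate 1), while that at 7.5 h in Emx held.

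Some members were also called higher at 7.5 h than at 1 h of light. Without the block, 5, 0, 0, 0 and 0 members were called higher at 7.5 h (Emx, Gad2, PV, SST and VIP), against 1.14, 0.112, 0.0564, 0.38 and 0.0352% of all genes. Those in Emx were Calr (1.43-fold), Sdf2l1 (1.85-fold), Creld2 (2.00-fold), Atf6 (1.76-fold) and Hsph1 (1.60-fold), with adjusted p between 0.0176 and 0.0411. The unadjusted p was under 0.05 for 12, 9, 13 and 11 members in Gad2, PV, SST and VIP, of which 2 in SST and 1 in VIP were lower at 7.5 h. The count was 0 without Emx 7.5 h replicate 1, Emx 1 h replicate 2 or Emx 1 h replicate 3, 1 without Emx 7.5 h replicate 2 and 3 without Emx 7.5 h replicate 3. With the block, 17, 16, 17, 22 and 4 members were higher at 7.5 h, against 9.9, 2.93, 4.03, 9.35 and 0.677% of all genes, and 3, 1, 0, 2 and 1 were lower, against 10.6, 1.62, 2.04, 7.12 and 0.381%. Dnajb1 was lower at 7.5 h than at 1 h in Emx, Gad2, SST and VIP, at 0.429-fold to 0.701-fold of its 1 h level. The others that were lower were Dnajb9 (0.783-fold) and Eif2ak3 (0.735-fold) in Emx and Hspa1a in SST (0.569-fold).

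Few members were called between standard and dark housing. Without the block no member was called in any line, where 0.12, 0.0492, 0.106, 0 and 0.127% of all genes were higher in standard housing (Emx, Gad2, PV, SST and VIP). The unadjusted p was under 0.05 for 6, 2, 1, 0 and 3 members, of which 1 in Emx and 1 in PV were lower. With the block, members called higher in standard housing numbered 2, 1, 4, 0 and 2, against 0.775, 0.738, 1.68, 0.225 and 0.359% of all genes. They were Atf4 in Emx (1.34-fold), Gad2 (1.15-fold) and PV (1.21-fold), Hspa8 in Emx (1.19-fold) and VIP (1.31-fold), Hsph1 in VIP (1.48-fold), and Hspa5 (1.21-fold), Calr (1.19-fold) and Manf (1.35-fold) in PV. None of the 9 held under every omission of 1 library. Hspa1a averaged 84.2 in standard and 130 in dark Emx libraries, and was not called (blocked adjusted p = 0.155).

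The libraries of 7.5 h light and of standard housing were sequenced to like depths, so they were compared directly, a comparison chosen after the data had been seen. Without the block, 2, 0, 0, 1 and 0 members were called higher at 7.5 h (Emx, Gad2, PV, SST and VIP), against 0.394, 0.0492, 0.0282, 0.584 and 0% of all genes. They were Hspa5 (1.83-fold, adjusted p = 0.0359) and Hsph1 (1.76-fold, adjusted p = 0.0331) in Emx and Dnajb5 in SST (2.78-fold, adjusted p = 0.00566). Hspa5 in Emx read 9841, 7906 and 6483 at 7.5 h, against 4006, 4727 and 4324 in standard housing, with no overlap. The unadjusted p was under 0.05 for 6, 5 and 4 members in Gad2, PV and VIP. With the block, 17, 10, 9, 19 and 0 members were higher, against 7.83, 1.28, 2.65, 8.62 and 0.141% of all genes. Among them was Hspa1a in Emx, which read 170, 143 and 147 at 7.5 h, against 64.9, 87.6 and 100 in standard housing, without overlap (1.83-fold, adjusted p = 0.0912 without the block and 0.00488 with it). That blocked call held without any 1 library. In Emx dark libraries Hspa1a read 151, 117 and 123, which overlap those at 7.5 h. With the block 1 was lower, Dnajb9 in SST (0.810-fold), where 5.41% of all genes were lower.

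The light response was found to differ between lines for few members, and only with the block. The joint test of line by light time called 0 members without it (0.317% of all genes), with 3 members at an unadjusted p under 0.05 and the lowest adjusted p, 0.225, for Dnajb5. With it 6 members were called, where 4.68% of all genes were. They were Dnajb5 (adjusted p = 2.36e-06), Atf6 (0.000118), Bag3 (0.00111), Hsph1 (0.00119), Hspa8 (0.00196) and Ddit3 (0.0419). The rise of Dnajb5 at 7.5 h in Emx was 1.68 times its mean rise in PV, SST and VIP (log2 difference 0.75 ± 0.25 SE, adjusted p = 0.471 without the block and 0.000599 with it).

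In that contrast of Emx with PV, SST and VIP, no member was called without the block at 1 h, 3 h or 7.5 h, where 0.0211, 0.0985 and 0.26% of all genes were, and 2, 3 and 5 members had an unadjusted p under 0.05. With the block, Dnajb5 was called at 1 h, Hspa8, Dnajb5 and Bag3 at 3 h and Hspa8, Hsph1 and Dnajb5 at 7.5 h, where 0.253, 0.985 and 2.45% of all genes were. The rise of Dnajb5 at 7.5 h was also larger in SST than in the mean of PV and VIP, by 1.98 times (adjusted p = 0.33 without the block and 0.000702 with it), a contrast chosen after the data had been seen. Members called there numbered 0 at each time without the block (0, 0.0352 and 0.0985% of all genes at 1 h, 3 h and 7.5 h, and 0, 1 and 1 members at an unadjusted p under 0.05). With it, 0 members were called at 1 h, Dnajb5 at 3 h and Dnajb5 at 7.5 h (0.0211, 0.148 and 0.668% of all genes).

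Some genes on the marker list of VIP neurons were higher with light in Emx, where most calls without the block were made. Changes in the marker sets of PV and SST neurons, oligodendrocytes and their precursors, microglia and blood vessels are not given here. The 7 VIP-neuron markers had a median log2 change of 1.25 at 7.5 h in Emx, with 2 of the 7 called, and summed to 32978 to 40544 at 7.5 h and 26877 to 31601 in the dark. In Emx standard housing that median was 1.13. The 8 inhibitory markers had a median log2 change of 0.49 in Emx at 7.5 h, with 0 called, and the 10 excitatory and 10 astrocyte markers had medians of -0.04 and 0.01, also with 0 called. The 9 early activity genes had median log2 changes of 2.03 to 3.76 at 7.5 h over the lines. The part of these shifts in the members' changes was not tested.

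In levels between lines, over the 5 conditions, Bag3 and Dnajb5 were the members called. A call between lines also required a log2 difference of at least 1. Bag3 averaged 929 ± 203 in PV (SD, n = 15), 561 ± 79.0 in Gad2, 425 ± 160 in VIP, 342 ± 89.7 in SST (n = 13) and 191 ± 65.1 in Emx. The spreads of mean ± SD overlapped between each neighbouring pair in that order except PV and Gad2, whose single libraries overlapped. Dnajb5 averaged 4339 ± 1768 in Emx, 2012 ± 870 in SST, 1346 ± 344 in VIP, 1179 ± 242 in Gad2 and 899 ± 188 in PV. Here the spreads of mean ± SD overlapped between every neighbouring pair in that order. Emx exceeded Gad2 for Dnajb5 3.41-fold (log2 1.77 ± 0.10 SE, adjusted p = 8.83e-24).

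Emx lay below Gad2 for Bag3 (log2 -1.61 ± 0.12 SE, adjusted p = 3.13e-18), and these were the 2 members called between Emx and Gad2 (25.4% of all genes). PV exceeded SST and VIP for Bag3 2.52-fold (adjusted p = 4.43e-17), the 1 member called there (18.8% of all genes). No member was called for SST against PV and VIP (8.89% of all genes) or for VIP against PV and SST (19.5%), where 17 and 27 members had an unadjusted p under 0.05. Without the size limit, 28 members passed the false discovery rate between Emx and Gad2, and 28 for PV against SST and VIP. For SST against PV and VIP 14 passed, and for VIP against PV and SST 27. The share of all genes without that limit was not counted. For each of the 35 members other than Bag3 and Dnajb5 the highest line mean was at most 2.09 times the lowest.

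**Figure D5:**
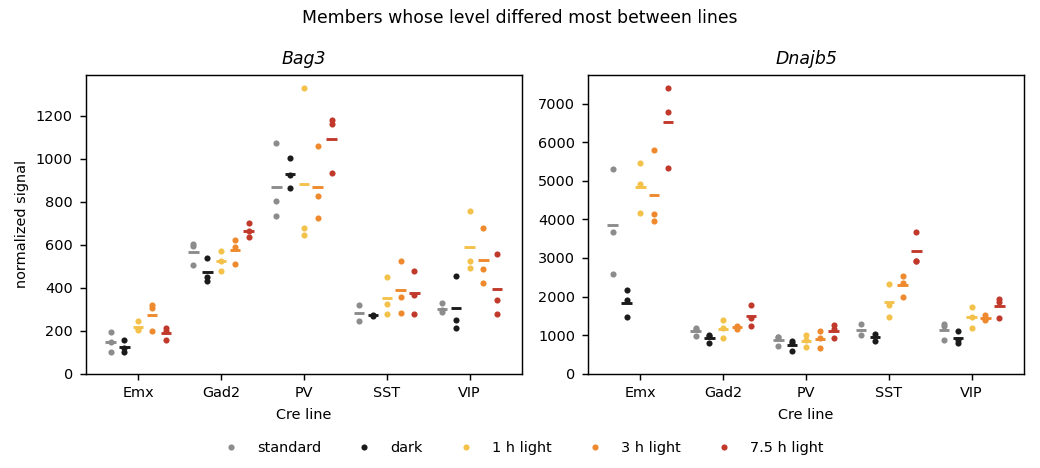
Normalized signal of Bag3 and Dnajb5 in each library, by Cre line and condition as in the legend. Bag3 is highest in PV (mean 929) and lowest in Emx (mean 191), while Dnajb5 is highest in Emx (mean 4339) and lowest in PV (mean 899).

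Other genes listed for the pathway were called in both directions. Whether each listed gene, Trib1 and Trib2 among them, takes part in the stress response was not tested. Of 132 further chaperone, ER and stress response genes (131 in SST and VIP), 6 were called higher and 1 lower at 7.5 h in Emx, 3 higher in SST and 0 in Gad2, PV and VIP. Of all genes, 2.52, 0.352, 0.331, 0.978 and 0.24% were higher in the 5 lines, Emx to VIP, and 1.28% were lower in Emx. With the block, 35, 11, 8, 22 and 3 of these genes were higher, against 12.9, 5.37, 5.29, 10 and 1.37% of all genes, and 12, 1, 2, 7 and 0 lower, against 13, 2.87, 2.61, 6.99 and 0.233%. Their median log2 change at 7.5 h was 0.04 to 0.14 by line. Atf3, a stress and activity factor, averaged 108 at 1 h and 3.70 in the dark in Emx (adjusted p = 0.00178), and 31.5 at 1 h and 5.07 in the dark in Gad2 (adjusted p = 0.0413). In SST Atf3 averaged 39.3 at 1 h and 0.302 in the dark, a very low level (adjusted p = 0.00127). Atf3 was also called higher than in the dark at 3 h in Emx and SST and at 7.5 h in SST. Trib1, a pseudokinase of the Tribbles family, averaged 4129 at 7.5 h and 912 in the dark in Emx (4.41-fold, adjusted p = 0.000595), and it rose 7.42-fold at 7.5 h in SST (adjusted p = 3.77e-05). Trib1 was called at 1 h as well, in Emx (4.11-fold), SST (5.47-fold) and VIP (4.33-fold), and at 3 h in Emx and SST.

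At 7.5 h in Emx, Trib2, of the same family, rose 2.55-fold (adjusted p = 0.000862), and Fkbp5, an Hsp90 co-chaperone that glucocorticoids raise, rose 2.09-fold (adjusted p = 0.00811). Fkbp5 also rose 2.26-fold at 7.5 h in SST (adjusted p = 0.00805). Dnajc1, an ER J protein, rose 2.05-fold (adjusted p = 0.0237) and Chordc1, an Hsp90 partner, 1.69-fold (adjusted p = 0.00811) at 7.5 h in Emx. The 1 gene called lower, Erlec1, a lectin of ER degradation, averaged 678 at 7.5 h and 965 in the dark in Emx (0.699-fold, adjusted p = 0.0452), and was chosen for naming after its value was seen.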

How the data were processed

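RNA from pools of 3 visual cortices was measured in 75 samples of 5 Cre lines and 5 housing conditions. The values are normalized read signal as deposited by the authors, 1 per gene and library, in a table that states no unit. Per the submitters' processing notes, which give no roles here, the build was mm9, and the tools were BWA, Cuffdiff 2.2.1, Cuffnorm, Bowtie2 2.1.0.0 and TopHat2 2.0.13. The columns of SST dark replicate 2 and SST standard replicate 2 are empty, and 25 columns of authors' means were not used. Low values are near multiples of a unit per library, from which the depth in gene reads was estimated. Since 92.8 to 96.4% of low values came out whole (within 0.1 of a read), no count test was run on them. The 23 rows named as dates were dropped, and 46 genes at 0 in a library whose other libraries had a median of 50 reads or more were set aside in the line concerned (no member among them).

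Genes that reached a signal of 1 in 3 or more libraries of a fit were tested across all genes with limma 3.58.1 in R 4.3.3 on log2(signal + 1), with trended and robust moderation and Benjamini-Hochberg adjustment within a line at 5%. Replicate numbers of the labels pair the samples: in every pair of same-numbered libraries of a line the deviations from the group means correlated at over 0.1 (lowest 0.103 in Gad2, 0.212 in VIP, 0.372 in Emx, 0.467 in SST and 0.491 in PV). Between libraries of different numbers the highest correlation was 0.216 in SST, 0.109 in PV, 0.0566 in VIP, 0.0527 in Gad2 and 0.0312 in Emx. Deviations from the mean of so few libraries push correlations between different numbers down by construction. Each fit was repeated with the number as a block because of the same-number correlations. Light by line was tested in a fit of all lines. The fit within a line without the block was tested on simulated data that held no pattern by replicate number. The fits with the block and the fit of all lines were not simulated. Members with values per library are those called without the block in a contrast with dark, or with it in at least 3 lines at one time. Some other values per library (Bag3, Hspa1a, a second line of a member) were chosen after they were seen. The members and the lists of markers and other pathway genes were chosen with earlier results of these data known. Motifs were searched in RefSeq promoter windows of GRCm38.p6. The alternatives tried were pseudocounts of 0.1 and 10, no filter, median-of-ratios rescaling, moderation that is not robust, the block, and leaving out each library.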

Additional observations from a re-analysis of the deposited data

Results flagged for a closer look

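The light response of 6 members differed between the Cre lines in the joint test of 12 line by light terms, in the fit with the replicate block and not without it (limma, adjusted over all genes). The adjusted p was 2.36e-06 for Dnajb5, 0.000118 for Atf6, 0.00111 for Bag3, 0.00119 for Hsph1, 0.00196 for Hspa8 and 0.0419 for Ddit3. Of all genes, 4.68% passed the same test.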

How the results depend on the processing

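Pseudocounts of 0.1 and 10, no filter on low values, median-of-ratios rescaling and moderation that is not robust left each of the 10 counts of called members within 1.5 times its value. The replicate block gave 19 calls over lines at 1 h (1 without), 60 at 3 h (7 without), 92 at 7.5 h (17 without), 9 for standard against dark (0 without), 83 for 7.5 h against 1 h (5 without) and 6 for the response by line (0 without), and moved none of the 4 counts between line levels by over 1.5 times. Set against standard housing, an alternative chosen after seeing the data, 7.5 h gave 3 calls without the block and 56 with it. Leaving out 1 library gave 0 to 2 calls at 1 h, 1 to 8 at 3 h, 11 to 18 at 7.5 h, 0 to 1 for standard against dark (1 without Emx standard replicate 1) and 0 to 6 for 7.5 h against 1 h. Leaving out 1 number of a line gave 0 to 0 for the response by line, 2 to 2 for Emx against Gad2, 1 to 1 for PV, 0 to 1 for SST (1 without SST replicate 2) and 0 to 1 for VIP (1 without VIP replicate 2). The cause was not tested. No result reversed. The count test on recovered reads was not run. At most 3 pools per group, 2 in SST dark and standard, limit what can be called, and the 7.5 h and standard libraries were the shallowest.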
